A study of Mus musculus with 10 samples.

Results

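The small leucine-rich proteoglycans (SLRPs) are secreted matrix proteins, and 8 of their genes were followed here across the livers of 10 mice: Omd, Dcn, Lum, Ogn, Bgn, Fmod, Aspn and Prelp. They were taken as the probes that the array annotation assigns to these symbols alone, which gave 1 probe per gene and 8 of the 36227 probes in the table. All 8 passed the filter on missing values and were among the 36088 probes tested. Omd was picked because its level was lower in the treated livers, so its difference between the groups is given as a description without a test. The other 7 genes were added as members of its family.

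The study measured messenger RNA by 1-colour CodeLink arrays, 1 array per mouse. In the ASO group, 5 male C57Bl/6 mice received an antisense oligonucleotide (ASO) to miR-122, a microRNA that is abundant in hepatocytes, at 50 mg/kg. The oligonucleotide had a phosphorothioate backbone and 2′-O-methoxyethyl sugars, per the labels. The 5 control mice received saline, with strain and sex not given in the labels used here. Mice of both groups were injected intraperitoneally 2 times a week for 4 weeks, and were killed 2 days after the final injection. No genotype or age was given in those labels. Because no oligonucleotide of another sequence was injected, oligonucleotide chemistry and loss of miR-122 activity cannot be told apart.

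An SLRP has a core of leucine-rich repeats and, in several family members, side chains of sulfated sugars. These proteins bind collagen fibrils, set their diameter and spacing, and hold growth factors such as TGF-beta in the matrix. In liver, decorin and biglycan are made mainly by stellate cells and portal fibroblasts and rise in fibrosis, whereas osteomodulin, the product of Omd, is best known from bone, dentin and tendon. Decorin, biglycan and asporin form 1 branch of the family. Osteomodulin, lumican, fibromodulin and prolargin (Prelp) form another, and osteoglycin (Ogn) belongs to a separate branch.

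Aspn, Omd and Ogn are neighbours in that order on mouse chromosome 13, in the gene table of assembly GRCm38.p6. The 250 bases before each annotated start site are shown because these adjacent genes gave different readings. They are from RefSeq (GRCm38.p6, forward strand), at chr13:49544193-49544442 for Aspn, chr13:49582212-49582461 for Omd and chr13:49607765-49608014 for Ogn. Capitals mark matches, on either strand, to any of 5 short motifs. These were the TATA box searched as TATAAA, the CCAAT box searched by those letters, the AP-1 motif searched as TGANTCA, the RUNX motif searched as TGTGGT and the E-box searched as CANNTG.
Aspn: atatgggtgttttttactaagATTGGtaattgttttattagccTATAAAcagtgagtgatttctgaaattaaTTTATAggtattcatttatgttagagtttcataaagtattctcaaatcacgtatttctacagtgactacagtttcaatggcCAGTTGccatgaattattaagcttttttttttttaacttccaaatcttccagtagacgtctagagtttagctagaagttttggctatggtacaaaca
Omd: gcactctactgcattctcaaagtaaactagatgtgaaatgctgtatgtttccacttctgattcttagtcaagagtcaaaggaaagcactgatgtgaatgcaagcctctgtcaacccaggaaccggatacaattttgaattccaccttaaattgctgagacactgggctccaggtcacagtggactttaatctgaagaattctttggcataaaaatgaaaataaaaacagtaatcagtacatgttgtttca
Ogn: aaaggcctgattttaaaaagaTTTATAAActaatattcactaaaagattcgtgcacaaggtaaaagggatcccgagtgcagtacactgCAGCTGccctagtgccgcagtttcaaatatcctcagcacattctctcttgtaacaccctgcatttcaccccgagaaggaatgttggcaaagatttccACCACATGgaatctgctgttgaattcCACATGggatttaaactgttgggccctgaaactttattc

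The window before Omd held none of the 5 motifs, as did 17.1% of 32851 such windows genome-wide. The Aspn window had 2 matches to TATAAA, on opposite strands, 1 to CCAAT and 1 to CANNTG. The Ogn window had 2 overlapping matches to TATAAA, 1 on each strand, 3 to CANNTG and 1 to TGTGGT, which overlapped the middle CANNTG. Among all windows, TATAAA occurred in 12.4%, CCAAT in 33.8%, TGANTCA in 6.75%, TGTGGT in 14.0% and CANNTG in 66.2%. The G and C content was 30% before Aspn, 38.4% before Omd and 42.0% before Ogn, against a median of 52.4%. These matches are letters in a window, and binding was not measured.

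Array intensities were on a linear scale with medians of 1.03 to 1.05 on the 10 arrays. Values below 0.192, the 10th percentile of positive values, were set to it before log2 was taken, which can change the size of the difference of a dim probe either way. Saline replicate 1 had a lower top intensity (542) than the other arrays (1198 to 2333), and the highest reading of the 8 probes was 89.7 (Dcn). As a check of the tissue, albumin (Alb), a defining product of hepatocytes, was at 9.84 ± 0.59 in saline and 10.4 ± 0.21 in ASO livers (log2 intensity, SD, n = 5 each). No batch was given in the labels or the table. In whole liver RNA, fewer cells of a type and less RNA per cell cannot be told apart.

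Omd was lower in every ASO liver than in every saline liver. Its intensities in saline replicates 1 to 5 were 4.95, 4.05, 3.05, 2.97 and 2.20. In ASO replicates 1 to 5 they were 1.10, 1.01, 0.975, 0.544 and 1.10. The lowest saline value thus stood above the highest ASO value, and 4 of the 5 ASO livers lay close to the median of all probes on their arrays. The mean log2 intensity was 1.73 ± 0.45 in saline and -0.12 ± 0.43 in ASO livers (SD, n = 5 each). The difference was -1.85 ± 0.26 (SE), or 3.61-fold lower. Leaving out any 1 array kept it between -2.0 and -1.66. Groups failed to overlap in this direction in 310 of 18012 genes (1.72%) and in the opposite one in 173 (0.960%), and Omd was chosen from this contrast. With a single probe, a second reading of Omd was not at hand.

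**Figure D1:**
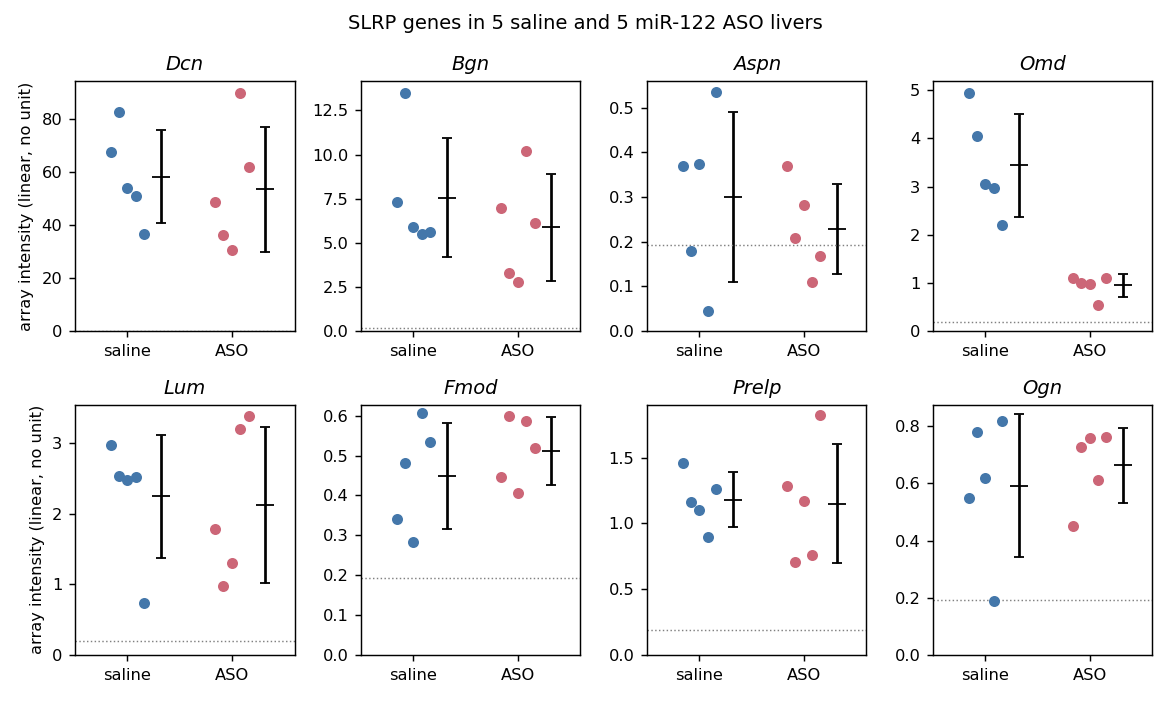
Array intensity (linear scale from 0, no unit) of the 8 SLRP genes in 5 saline livers (blue) and 5 miR-122 ASO livers (red), 1 point per liver in replicate order. Black bars give mean and SD, and the dotted line is the floor of 0.192. In Omd the ASO livers (0.544 to 1.10) lie below the saline livers (2.20 to 4.95), and in the other 7 genes the groups overlap.

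None of the other 7 genes separated the groups. By limma over all 36088 probes, 0 of 7 passed an adjusted p of 0.05 and 0 of 7 had an unadjusted p under 0.05. Among all 18012 genes, 16 (0.0888%) passed the adjusted threshold, and an unadjusted p under 0.05 was reached by 4.21% on the higher side and 8.26% on the lower side. The groups overlapped in all 7 genes, 5 with a lower and 2 with a higher mean in ASO livers. Their median difference was -0.11 on the log2 scale, against -0.04 for all genes. Exact two-sided permutation tests over the 10 livers gave p from 0.325 to 0.849, where the design allows 0.00794 at the smallest.

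Decorin (Dcn) binds collagen and TGF-beta and carries a chondroitin or dermatan sulfate chain. Its intensities in saline replicates 1 to 5 were 67.4, 82.4, 53.9, 51.0 and 36.5. In ASO replicates 1 to 5 they were 48.5, 36.3, 30.7, 89.7 and 61.9. The highest value of all 10 livers and the lowest were both in the ASO group. The difference was -0.18 ± 0.31 (log2, SE, limma adjusted p = 0.862), with a 95% interval of -0.86 to 0.50.

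Biglycan (Bgn), the closest relative of decorin, can also act on Toll-like receptors when released from the matrix. Saline livers read 7.30, 13.5, 5.91, 5.53 and 5.64 in replicates 1 to 5, with replicate 2 well above the rest. ASO livers read 7.0, 3.29, 2.76, 10.2 and 6.13, so replicates 2 and 3 were below all saline livers and replicate 4 above 4 of them. The difference was -0.44 ± 0.38 (log2, SE, limma adjusted p = 0.686), with a 95% interval of -1.26 to 0.38. Asporin (Aspn), which carries a run of aspartates in place of sugar chains, was dim. It was at or below the floor in 2 saline and 2 ASO livers and had a difference of -0.35 ± 0.31 (adjusted p = 0.701). Without the floor the Aspn difference was -0.11.

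Lumican (Lum), a keratan sulfate proteoglycan of collagen fibrils, varied widely inside each group. Its intensities in saline replicates 1 to 5 were 2.98, 2.54, 2.48, 2.52 and 0.739. In ASO replicates 1 to 5 they were 1.78, 0.975, 1.30, 3.21 and 3.39. Saline replicate 5 was far below the other 4 saline livers, and the ASO livers spanned both sides of them. The difference was -0.10 ± 0.44 (log2, SE, adjusted p = 0.955), with a 95% interval of -1.07 to 0.87. Its sign turned when saline replicate 1, ASO replicate 2 or ASO replicate 3 was left out (0.04, 0.14 and 0.03).

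The other relatives of Omd were near or below the array median. Fibromodulin (Fmod), which shares a collagen site with lumican, ranged from 0.283 to 0.607 in saline and 0.406 to 0.599 in ASO livers, a difference of 0.23 ± 0.23 (log2, SE, adjusted p = 0.744). Prolargin (Prelp), which links basement membrane to collagen, ranged from 0.896 to 1.46 and from 0.707 to 1.82. Its difference was -0.11 ± 0.26 (adjusted p = 0.913), with a sign that turned without ASO replicate 2 (0.05) or ASO replicate 4 (0.02). Osteoglycin (Ogn), next to Omd on the chromosome, ranged from 0.189 to 0.820 in saline and 0.451 to 0.763 in ASO livers. Its difference was 0.30 ± 0.36 (adjusted p = 0.795). Saline replicate 4 was at the floor, and without it the Ogn difference was -0.07.

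Other genes of the family and the neighbours of Omd did not pass either. Of 11 further SLRP-type genes 8 were measured, 5 higher and 3 lower, with a median of 0.19 and no unadjusted p under 0.05. The smallest p values belonged to podocan (Podn, 0.34 ± 0.17), Podnl1 (-0.59 ± 0.30) and chondroadherin (Chad, -0.52 ± 0.30), with limma adjusted p of 0.482, 0.487 and 0.542. Of 9 genes around Omd 8 were measured, including Aspn and Ogn, and 0 had an unadjusted p under 0.05. Their median was -0.07, and the furthest from 0 was Bicd2, a dynein adaptor, at -0.38 ± 0.32. Nol8, the next gene after Ogn, stood at -0.08 ± 0.27, and the isoleucyl-tRNA synthetase gene Iars at -0.06 ± 0.19.

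**Figure D2:**
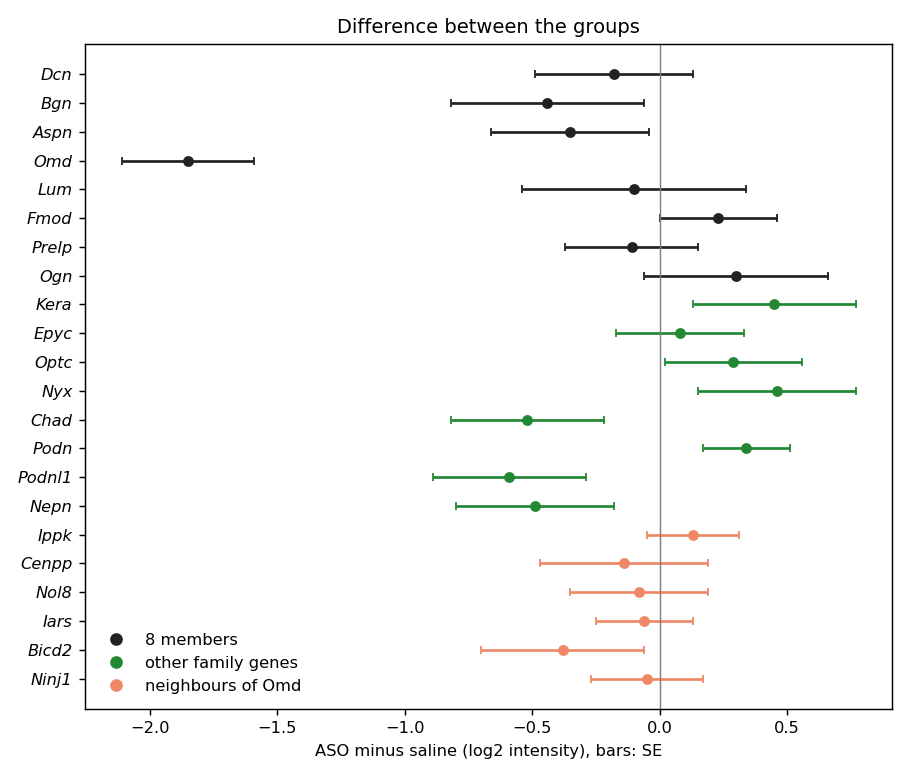
Difference between ASO and saline livers in log2 intensity (points) with its SE (bars) for the 8 members (black), 8 other family genes (green) and 6 neighbours of Omd on chromosome 13 (orange). Omd stands at -1.85, and the others lie between -0.59 (Podnl1) and 0.46 (Nyx).

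Liver to liver, 3 of the 8 genes moved together and Omd did not follow them over all 10 livers. Deviations from the group mean were compared, so the group difference plays no part over all 10 livers, and all pairs share the same arrays. Where the livers farthest from the median of a gene were left out, that median and distance were also those of the deviations. The group means of all 10 livers were kept there, so an offset between the groups can enter. Where 1 named liver was left out, the group means were taken anew. Dcn and Bgn had r = 0.91 (Spearman's rho 0.93, n = 10 livers, 0.82 without the 2 livers farthest from the Dcn median). Dcn and Lum had r = 0.84 (rho 0.85, 0.86 without 2 livers), and Lum and Bgn had 0.61 (rho 0.66). These were the 3 pairs of 28 with r of at least 0.6, and the median over pairs was 0.03.

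Omd and Dcn had r = 0.01 (rho 0.26, n = 10 livers), and that value rested on 1 liver. ASO replicate 4 had the lowest Omd intensity and the highest Dcn intensity of all livers. Without it r was 0.76 for Omd with Dcn, 0.70 with Lum and 0.52 with Bgn, against 0.22 and -0.07 for Lum and Bgn over all 10. Without the 2 livers farthest from the Omd median by deviation (ASO replicate 4 at -0.75 and saline replicate 5 at -0.59), the r of Omd with Dcn was 0.49. That value kept the group means of all 10 livers, unlike the 0.76. Omd with its chromosomal neighbours gave 0.02 for Ogn (rho 0.07) and -0.07 for Aspn (rho -0.03). With the mean of the 6 other measured genes around it, Omd ran in the opposite sense (r = -0.80, rho -0.81, -0.59 without the 2 farthest livers).

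**Figure D3:**
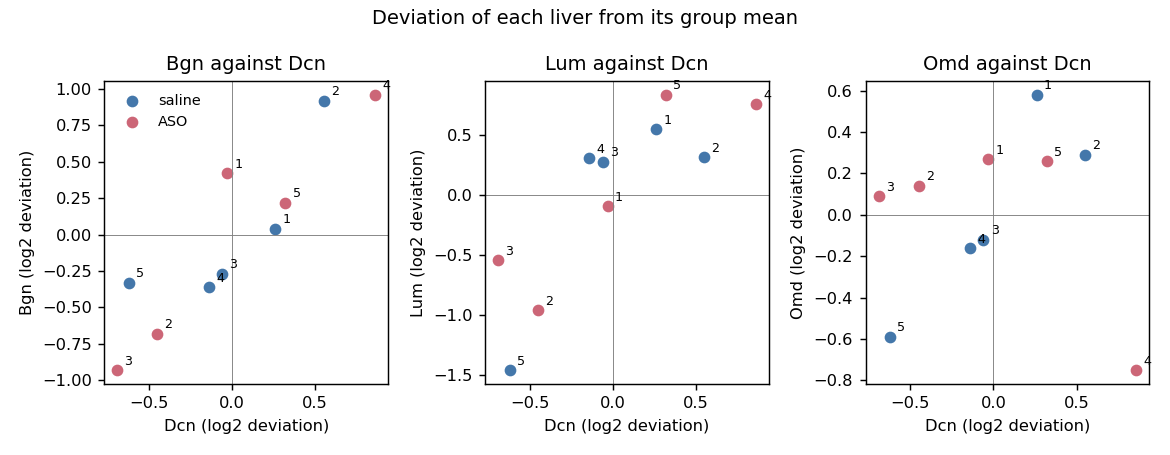
Deviation of each liver from its group mean in log2 intensity, for Bgn, Lum and Omd (vertical axes) against Dcn (horizontal axes), in saline (blue) and ASO (red) livers numbered by replicate. Bgn and Lum follow Dcn (r = 0.91 and 0.84), and in Omd the liver of ASO replicate 4 lies apart at lower right.

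Markers of liver cell types were read beside these genes. Dcn and Bgn followed the mean of 10 endothelial markers (r = 0.79 and 0.80, rho 0.70 and 0.68, n = 10 livers) and of 9 macrophage markers (0.70 and 0.71, rho 0.68 and 0.66). Without the 2 livers farthest from the median of the gene, the endothelial r was 0.83 for Dcn and 0.45 for Bgn and the macrophage r 0.82 and 0.52, so those of Bgn rested largely on 2 livers. Some lists that stand for no cell type gave similar r, at 0.73 and 0.72 for keratan sulfate enzymes and 0.74 and 0.75 for TGF-beta induced genes. Others did not, such as linker and chondroitin or dermatan sulfate enzymes (0.19 and 0.07). With 19 stellate cell markers the r was 0.56 for Dcn and 0.34 for Bgn, and 0.69 for Lum (rho 0.56, 0.48 and 0.73, and 0.71, 0.18 and 0.43 without 2 livers). With 16 portal fibroblast markers Dcn and Bgn ran in the opposite sense (r = -0.61 and -0.58, rho -0.72 and -0.66, and -0.49 and -0.43 without 2 livers). Lum also followed the 14 markers of mesothelium and liver capsule (r = 0.82, rho 0.76), and this fell to 0.47 without the 2 livers farthest from the Lum median. Omd had r = 0.09 with the stellate, -0.16 with the portal fibroblast, 0.47 with the mesothelial and -0.19 with the endothelial list. With 9 hepatocyte markers Omd had r = -0.56 (rho -0.50, -0.74 without the 2 farthest livers and -0.78 after quantile normalization). In all, 168 such relations were computed and they are a description. Their part in the results was not tested.

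By likeness to Omd across the 10 livers, the nearest of 11595 named probes above the median level was Aldh6a1, a mitochondrial enzyme of valine breakdown (r = 0.98, rho 0.95, and 0.97 without the 2 livers farthest from the Omd median). Next were the chaperonin gene Cct6a (0.95), Mospd1 (0.95), the carboxylesterase gene Ces1e (0.94) and the RNA polymerase subunit gene Polr2k (0.94). Aldh6a1 was at 4.92 in saline and 4.01 in ASO livers, a difference of -0.91 ± 0.48 (log2, SE, limma adjusted p = 0.505). None of the 5 passed the adjusted threshold. All share the same 10 arrays, and no p is given. They were picked as the highest of 11595 values over 10 livers, a choice that by itself raises r.

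The machinery that builds and modifies SLRPs, their partners and cell types were read from 21 lists. Of 257 listed genes other than the members, 10 were higher and 20 lower at an unadjusted p under 0.05, shares no larger than those of all genes (4.21% and 8.26%). Among all genes 54.9% had a lower mean in ASO livers. Tyrosine sulfation, which occurs on osteomodulin, lumican and fibromodulin, was read through a list of 4 genes. Tpst1 and Tpst2 act on tyrosine, whereas Papss1 and Papss2 make the sulfate donor and are not particular to tyrosine. All 4 were lower in ASO livers, and 3 had an unadjusted p under 0.05. The list median was -0.61, against -0.04 for all genes, and the summed intensity was 12.2 to 16 in saline and 6.83 to 11.2 in ASO livers. The sulfotransferase Tpst2 ranged from 2.37 to 3.08 in saline and 1.16 to 2.49 in ASO livers, a difference of -0.68 ± 0.21 (limma adjusted p = 0.281). Tpst1 ranged from 3.44 to 6.95 and from 1.92 to 4.12 (-0.79 ± 0.28, adjusted p = 0.328). Papss2, which makes the sulfate donor, had -0.54 ± 0.22 (adjusted p = 0.384). None passed after adjustment. Omd followed the mean of these 4 genes across livers with r = 0.77 (rho 0.75, 0.52 without the 2 livers farthest from the Omd median).

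Enzymes of the sugar linker and of chondroitin or dermatan sulfate, which extend the chains of decorin and biglycan, showed no common direction. Of 22 genes 19 were measured, 9 higher and 10 lower (median -0.01). An unadjusted p under 0.05 was reached by 1 higher and 2 lower, beside 4.21% and 8.26% of all genes. Those enzymes were the xylose kinase Fam20b (0.54 ± 0.18, adjusted p = 0.294), the chain-starting enzyme Csgalnact2 (-0.92 ± 0.28, adjusted p = 0.273) and the epimerase Dse (-0.62 ± 0.27, adjusted p = 0.419). The groups of Fam20b did not overlap, as in 0.96% of all genes on the higher side. Of 12 keratan sulfate genes, 6 were higher and 6 lower (median 0.03). The galactosyltransferase B4galt1 had 0.72 ± 0.25 (adjusted p = 0.321). The sulfotransferases Chst1 and Chst4 had -1.21 ± 0.44 and -0.66 ± 0.30 (adjusted p = 0.345 and 0.445).

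Collagens and their assembly genes, the partners of SLRPs on the fibril, were lower in 16 of 23 measured genes, with a median of -0.18. At an unadjusted p under 0.05 there were 3 lower and 0 higher, beside 8.26% and 4.21% of all genes, of which 54.9% were lower at any p. Col5a3 ranged from 19.1 to 27.6 in saline and 7.85 to 17.7 in ASO livers (-0.95 ± 0.22, adjusted p = 0.180). Its groups did not overlap, as in 1.72% of all genes on the lower side. Col5a1 had -0.59 ± 0.20 (adjusted p = 0.298), and fibronectin (Fn1), which hepatocytes also secrete, had -1.23 ± 0.43 (adjusted p = 0.325). Of 19 larger proteoglycan and elastic fibre genes 8 were higher and 11 lower (median -0.14). At an unadjusted p under 0.05 by limma, 3 were higher and 1 lower, beside 4.21% and 8.26% of all genes. The glypican Gpc1 had 0.65 ± 0.22, perlecan (Hspg2) -0.70 ± 0.26 and Fbln1 0.57 ± 0.23 (adjusted p = 0.322, 0.357 and 0.383). Matrix proteases and inhibitors were higher in 10 and lower in 8 of 18 genes (median 0.04). Adam17, Ctsk and Adamts1 had 0.27 ± 0.14, 0.41 ± 0.22 and -0.51 ± 0.31, and 0 of 18 had an unadjusted p under 0.05.

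Receptors that SLRPs bind were split, with 8 higher and 9 lower of 17 measured and a median of -0.13. The ATP-gated channel P2rx4, a partner of biglycan signalling, had 0.39 ± 0.16 (adjusted p = 0.398). Its groups did not overlap, as in 0.96% of all genes on the higher side. The integrin chain Itgb1 had -0.59 ± 0.27 and Igf1r -0.53 ± 0.31 (adjusted p = 0.446 and 0.542). TGF-beta and BMP ligands, receptors and SMADs were lower in 13 of 19 genes (median -0.24, beside 54.9% of all genes lower), 2 of them at an unadjusted p under 0.05, a share near the 8.26% of all genes. Smad2, which carries the TGF-beta signal, had -0.70 ± 0.22, the receptor Bmpr1a -0.89 ± 0.34 and Bmp4 -0.48 ± 0.22 (adjusted p = 0.279, 0.372 and 0.447). Of 13 genes that TGF-beta induces, 4 were higher and 9 lower (median -0.09). Pmepa1 had -0.47 ± 0.21, Ccn2 0.50 ± 0.25 and Postn -0.85 ± 0.45 (adjusted p = 0.438, 0.490 and 0.513).

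Among the cells that could supply SLRPs, portal fibroblast markers held the 1 listed gene that passed, of 257 measured on the 21 lists. Gas1, a surface protein first found in resting fibroblasts, fell by 2.22 on the log2 scale (SE 0.31, limma adjusted p = 0.0448), from 6.13 to 13.6 in saline to 1.19 to 3.10 in ASO livers. This call was already known when the list was drawn up. It was lost without the floor (adjusted p = 0.0953) and when any 1 array other than ASO replicate 1 was left out (adjusted p 0.0704 to 0.152), while the difference stayed at -2.22 without the floor and between -2.39 and -2.03 without 1 array. The other portal fibroblast markers were not lower together. Tetranectin (Clec3b) was higher by 0.83 ± 0.17 (limma adjusted p = 0.132), with groups that did not overlap, as in 0.96% of all genes on the higher side. Clec3b was dim, with a saline median intensity of 0.199 and 2 arrays at the floor, and its difference was 0.32 with a pseudocount. Pi16 had -0.43 ± 0.21 (adjusted p = 0.462), and the list stood at 6 higher and 10 lower with a median of -0.09. Pdgfra, a defining marker of fibroblasts, had 0.24 ± 0.20, and Dpt, a matrix protein that binds decorin, 0.05 ± 0.24. Both are from the 6 higher genes. The 10 lower genes included Eln (-0.55 ± 0.26), Igfbp6 (-0.45 ± 0.43) and Cd34 (-0.43 ± 0.40), with limma adjusted p of 0.465, 0.721 and 0.709.

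Stellate cell markers stood at 10 higher and 9 lower (median 0.01), with 2 lower at an unadjusted p under 0.05, a share near the 8.26% of all genes. These were Tlcd4 (-1.0 ± 0.40) and the transcription factor Lhx2 (-0.53 ± 0.23), followed by Rgs5 at 0.65 ± 0.30 (adjusted p = 0.390, 0.418 and 0.446). Reln, a defining stellate marker, had 0.03 ± 0.17. The summed intensity of the list was 331 to 391 in saline and 310 to 401 in ASO livers, and a large part of that sum was 1 gene, Ecm1 (median 170 and 182). Hand2 and Bmp5 of this list were at the floor on 8 of 10 arrays each. Mesothelium and capsule markers were lower in 11 of 14 genes (median -0.17), beside 54.9% of all genes. Their summed intensity was 40.1 to 50.8 in saline and 37.4 to 43.0 in ASO livers. Krt19 had -0.62 ± 0.24, Igfbp5 -0.77 ± 0.33 and Wt1 -0.61 ± 0.29 (adjusted p = 0.377, 0.422 and 0.452). Smooth muscle markers were lower in 7 of 9 genes (median -0.08), also beside 54.9% of all genes. Mylk had -0.91 ± 0.52, Tagln -0.32 ± 0.25 and Acta2 -0.78 ± 0.64.

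Osteomodulin is a bone protein, so markers of bone and cartilage cells were read as well. Of 10 measured, 5 were higher and 5 lower (median -0.02), and 2 were higher at an unadjusted p under 0.05, beside 4.21% of all genes. Alpl, a phosphatase that liver also makes, ranged from 5.71 to 10.9 in saline and 12.6 to 29.1 in ASO livers (1.25 ± 0.26, adjusted p = 0.135). Col2a1 had 0.78 ± 0.28 and Mepe -0.44 ± 0.22 (adjusted p = 0.339 and 0.475). The lowest saline reading of Col2a1, 0.167, was below the floor.

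Endothelial markers had a median of 0.16 (7 of 10 higher, Cdh5 0.87 ± 0.28, Stab1 0.49 ± 0.32, Vwf 0.24 ± 0.21). Macrophage markers had -0.20 (6 of 9 lower, Mpeg1 -1.45 ± 0.48, C1qa -0.67 ± 0.41, Adgre1 0.26 ± 0.23). Among all genes 54.9% were lower. Hepatocyte markers had a median of 0.41, 6 of 9 being higher, with Alb at 0.57 ± 0.27, Glul at 0.48 ± 0.23 and Arg1 at -0.32 ± 0.16. No probe read above 542 on saline replicate 1, while Alb reached 1290 elsewhere in the saline group. Without 1 array the Alb difference ranged from 0.33 to 0.69 and that of Glul from 0.36 to 0.58. The part of saline replicate 1 in the hepatocyte differences was not tested. Pancreas markers had 0.04 (3 of 5 higher, Cel -0.84 ± 0.36, Gcg 0.67 ± 0.33, Cela3b 0.33 ± 0.21) and fat cell markers 0.27 (4 of 5 higher, Lep 0.31 ± 0.21, Pparg 0.31 ± 0.26, Fabp4 0.25 ± 0.30). None of these genes passed the adjusted threshold. Lep read at most 0.0858 in saline livers, all below the floor of 0.192, so its difference could not be negative. Of the 5 pancreas markers, 4 were at the floor on some arrays. Cdh5 read as low as 0.0534 in saline livers, also below the floor.

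**Figure D4:**
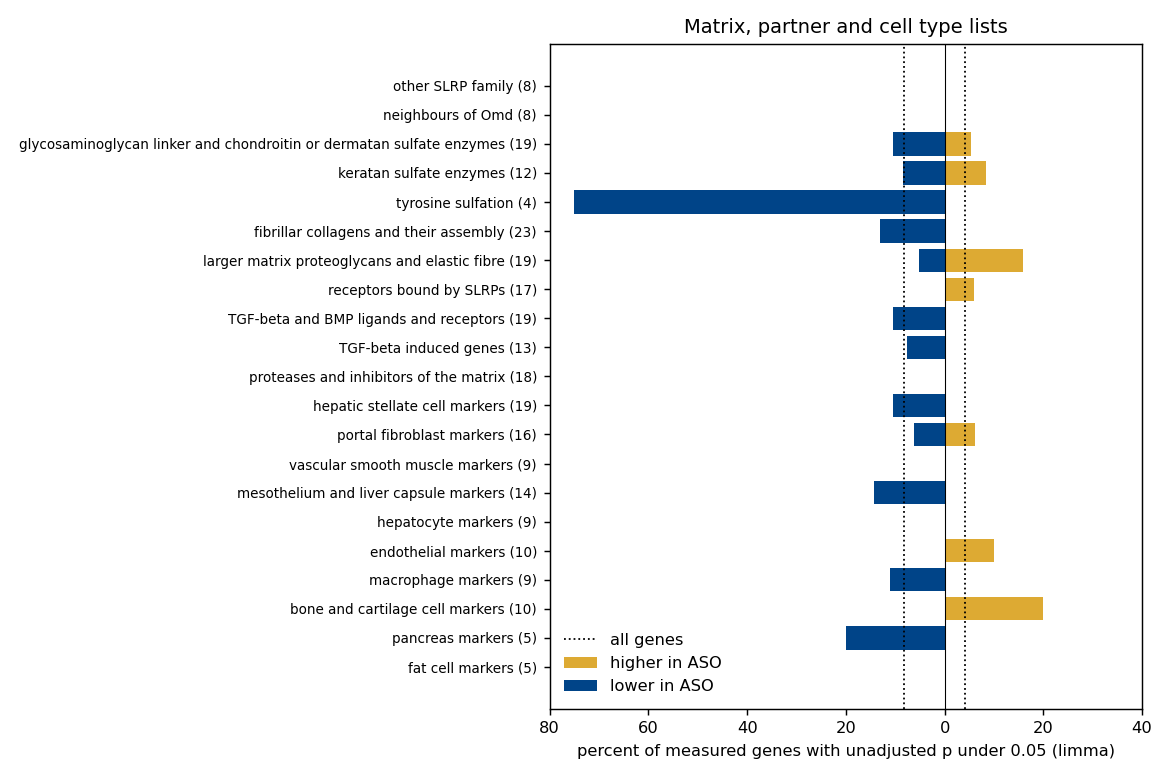
Percent of the measured genes of each list (number in brackets) with an unadjusted limma p under 0.05, higher (right) or lower (left) in ASO livers, with dotted lines for all genes (4.21% and 8.26%). The longest bar, tyrosine sulfation, stands for 3 of 4 genes (Tpst1, Tpst2 and the sulfate donor enzyme Papss2), against 8.26% of all genes on that side.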

How the data were processed

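The table deposited by the authors holds array intensities on a linear scale for 36227 probes and 10 arrays, 5 per group. Per the labels' protocols, RNA was labelled with biotin for CodeLink arrays. How the scans were read, background-corrected, scaled and quality-flagged was not given in the sources used here. Values at or below 0 (74 to 377 per array) and missing values (136 to 280) were present.

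Probes with at least 3 values in each group were kept (36088). Intensities were floored at 0.192 and log2 was taken (floor -2.38). Differences were fitted per probe with limma 3.58.1 (lmFit, eBayes; R 4.3.3), as ASO minus saline. Two-sided p-values were adjusted across the whole table by Benjamini-Hochberg, and 0.05 was the threshold. Each gene was represented by its probe of highest mean. Of 21615 single-gene probes, 21487 matched a gene table of GRCm38.p6 by Entrez ID. Correlations used deviations from the group mean (scipy 1.17.1).

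Members and the 21 gene lists were chosen with earlier results of these data known. From each list up to 3 genes with the smallest p were named, with the 5 genes most like Omd. Nyx, Nol8, Iars, Reln, Pdgfra, Dpt, Eln, Igfbp6, Cd34, Ecm1, Hand2 and Bmp5 were named besides, after their values were seen. Replicates were numbered in order, and p-values measure the spread between these mice. The alternatives comprised a pseudocount of 0.5, quantile normalization, omission of the floor, a restriction to probes brighter than the median, trend and robust eBayes, array weights, leaving out each array, an exact permutation test and, added after the data were seen, cyclic loess. On simulated data for ASO against saline (36088 probes), calls were made for 50 of 66 probes given a 4-fold change, for 12 of 67 given 2-fold and for 0 of 67 given 1.5-fold, all above the median level. The number of arrays limits the precision.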

Additional observations from a re-analysis of the deposited data

Results flagged for a closer look

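In 8 of 138 groups of 5 livers read for the members and the listed genes, 1 liver stood far from the rest, where chance gives about 1 in 20. Among the members, Omd in ASO replicate 4 was at -0.88 on the log2 scale, with the next liver at -0.04. Lum in saline replicate 5 was at -0.44, with the next at 1.31, and Ogn in saline replicate 4 was at the floor of -2.38, with the next at -0.86. Among listed genes, saline replicate 5 was low for Dse (2.63, next 3.24), ASO replicate 1 for Ctsk (-1.59, next -0.88) and ASO replicate 2 for Acta2 (-2.33, next 0.54). Saline replicate 2 was high for Clec3b (-1.77, next -2.31) and saline replicate 4 for Cel (-0.32, next -0.46).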

How the results depend on the processing

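The Omd difference, -1.85 in the main fit, was -1.42 with a pseudocount and between -2.0 and -1.66 in every other alternative fit. Of the 7 other members, 0 passed the adjusted threshold or an unadjusted p under 0.05 under any alternative. With only probes above the median level, just 4 of the 7 were tested (not Ogn, Fmod or Aspn). The number of probes past the threshold, 23, went to 7 with no floor, 43 with a pseudocount, 73 with only probes above the median level, 42 with trend and robust eBayes and 39 with cyclic loess, and to between 0 and 16 without 1 array. The count of listed genes past it, 1, went to 0 with no floor and was 0 to 1 without 1 array. The r of Dcn with Lum was 0.78 after quantile normalization. Without 1 array the difference ranged from -0.47 to 0.14 for Lum, -0.07 to 0.45 for Ogn, -0.29 to 0.05 for Prelp and -0.01 (without ASO replicate 4) to 0.42 for Fabp4. The cause was not tested, except that leaving out an array reduces the sample. No paired analysis was possible because the labels give no replicate numbers shared between groups. Low signal limits Aspn, Ogn and Fmod most.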
